A study of Nicotiana tabacum with 9 samples.

Results

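M21 is one of the tobacco lines made or chosen for work on NtAN3, and NC82 is the cultivar it was set against. The comparison covered 6 libraries of young leaves taken at the stage when flower buds form, 3 of M21 and 3 of NC82, out of 9 libraries in the series. A gene was described here if its value was 1 or more in at least 3 of these 6 libraries. That rule kept 32504 of the 69500 genes in the table, and 36996 stayed outside it.

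AN3, an SS18-family protein, switches on transcription as a co-activator. It has no DNA-binding domain of its own and acts with growth-regulating factors, the transcription factors with QLQ and WRC domains. In Arabidopsis the pair keeps cells of the young leaf dividing, and loss of AN3 gives narrow leaves with fewer cells. NC82 is a flue-cured cultivar of Nicotiana tabacum, an allotetraploid that carries 2 related copies of most genes.

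The labels do not say which change of NtAN3 the M21 line carries, which promoter was used or whether it is 1 clone. They do not say whether the 3 libraries of a group came from separate plants, so each p-value below measures only the spread between these libraries. The table describes genes by protein domains and gives no gene names, so genes are called by their identifiers. Reads of closely related copies could have been divided between them in more than one way, which makes the values of members of large families less certain. In whole leaves, fewer cells of a type and less RNA per cell cannot be told apart.

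Values summed to between 771390 and 790816 per library, with 42762 to 43649 genes above 0. The first principal component held 66.0% of the variance and separated M21 from NC82. On the second, with 13.9%, NC82 replicate 1 and M21 replicate 3 lay on the same side at 22.8 and 18.8, while the other 4 libraries lay between -20.5 and -0.45. The tissue label was checked on green-leaf genes. The 14 genes described as RuBisCO small chains took 5.25 to 5.66% of the summed values in NC82 and 5.28 to 5.65% in M21, and 1 of the 14 was at 0 in all 6 libraries. Chlorophyll a/b binding proteins took 4.03 to 4.61% in NC82 and 4.03 to 4.93% in M21. Oxygen-evolving proteins took 1.08 to 1.11% in NC82 and 0.991 to 1.13% in M21. Of the 33 tested, 2 were called higher and 10 lower in the fit below. For dividing tissue, MCM replication helicases took 0.00947 to 0.0106% in NC82 and 0.0106 to 0.0123% in M21. Kinesin motors took 0.0431 to 0.0488% in NC82 and 0.0409 to 0.0526% in M21. Of 62 genes described as Ole e 1 or pistil-specific proteins, 16 were at 0 in all 6 libraries, and the family took 0.172 to 0.192% in NC82 and 0.186 to 0.197% in M21. Of 52 MADS-box genes with a K-box, which include floral organ regulators, 13 were at 0 throughout and the sum was at most 0.0213% of a library.

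In M21, 4288 genes were called higher than in NC82 and 3717 lower (limma on log2(value + 1), adjusted p under 0.05). These are 13.2% and 11.4% of the genes tested, or 24.6% together. The counts given below for gene groups are to be read beside these shares. Most changes were small: the median size among called genes was 0.49 on the log2 scale, and 4160 of the 8005 were under 0.5. A rise of 1 or more was called for 626 genes, 1.93% of those tested, and a fall of that size for 287, or 0.883%. All M21 libraries lay above all NC82 libraries in 22.5% of the genes tested and below them in 18%. The share of lower calls depended on level. Among 1124 genes with a mean value over 100, 28.4% were lower and 13.3% higher, while among 9292 genes with a mean of 2 to 5, 8.64% were lower and 10.5% higher.

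**Figure D1:**
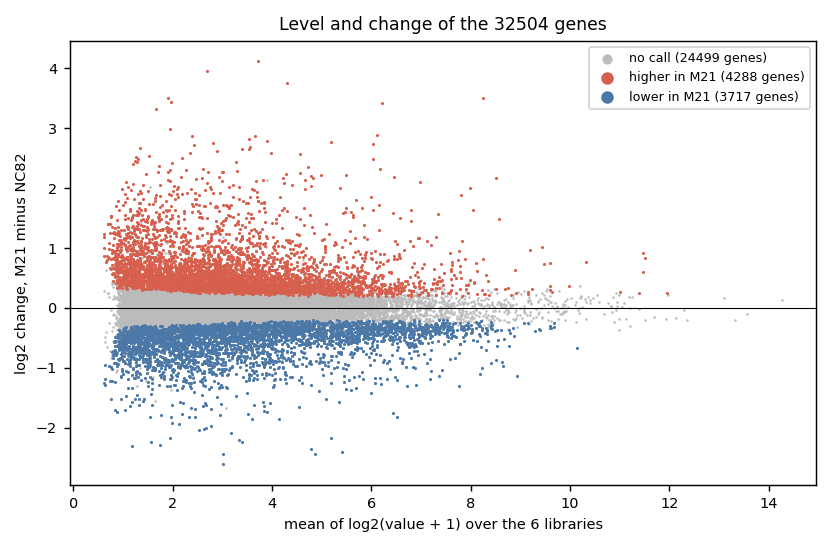
Each point is 1 of the 32504 genes, with the mean of log2(value + 1) over 6 libraries on the x axis and the log2 change, M21 minus NC82, on the y axis. Changes run from -2.61 to 4.13, the 4288 higher and 3717 lower calls flank a band around 0, and rises reach further from 0 than falls.

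The SS18 family holds the AN3 relatives, and 4 of its 6 genes in the table passed the filter. Nitab4.5_0007901g0050 was nearly silent in NC82, at 0.34, 0.25 and 0.25, and stood at 5, 5.80 and 4.32 in M21. The change was 2.23 ± 0.11 (SE; limma, adjusted p = 5.5e-06). With NC82 under 1, the filter could pass this gene only if all M21 libraries were at 1 or more. Its separate groups therefore follow from the filter, and its p-value is not independent of it. The genes tested that share the number in its identifier, Nitab4.5_0007901g0010 and Nitab4.5_0007901g0020, changed by 0.08 and 0.01 and were not called. The most abundant relative, Nitab4.5_0000319g0250, was at 22.7, 25.7 and 23.2 in NC82 and 21.3, 20.8 and 26.8 in M21, with overlapping groups and an adjusted p of 0.73 (limma). Nitab4.5_0001993g0030 was at 8.90, 7.54 and 8.71 in NC82 and 6.66, 6.82 and 6.38 in M21, a fall of 0.30 on the log2 scale (limma, adjusted p = 0.034). That call was lost without M21 replicate 1, M21 replicate 3, NC82 replicate 1 or NC82 replicate 3. The remaining tested member of the family, Nitab4.5_0000768g0010, was not called, and the family median was -0.11. Of 6 tested growth-regulating factors, the partners of AN3, 1 was higher and 2 were lower. Nitab4.5_0001033g0050 rose from 7.68, 6.51 and 6.87 to 9.76, 8.80 and 12.2. Nitab4.5_0001494g0010 fell from 7.70, 8.33 and 7.88 to 6.03, 6.22 and 5.96. Both calls were lost without NC82 replicate 2 (limma, adjusted p = 0.064 and 0.060). The other one called lower, Nitab4.5_0001426g0010, went from 3.31, 3.36 and 3.25 to 2.41, 2.28 and 2.70, and its call was lost without M21 replicate 1 or 2 and without each NC82 replicate. These 3 genes were picked after their values were seen.

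The 10 genes with the largest rises held 4 without a known function, a pair of CAP-domain proteins, a peroxidase, a MADS-box factor, a protein phosphatase 2C and a FAR1-type gene. Nitab4.5_0000933g0090, a protein of unknown function, was at 0.51, 0.77 and 0.68 in NC82 and 24.6, 22.2 and 27.1 in M21, a change of 3.95 ± 0.10 (SE; limma, adjusted p = 3.6e-07). Nitab4.5_0004861g0050, also without a described domain, was at 3.05, 5.42 and 4.89 in NC82 and 61.4, 73.6 and 80.8 in M21. It shares its number with the CAP-domain gene Nitab4.5_0004861g0030, which changed by 3.42 ± 0.17. Nitab4.5_0003436g0020, a class III peroxidase of the kind that oxidises phenolics in the cell wall, stood at 21.7, 22.2 and 30.7 in NC82 and 172, 197 and 195 in M21. The MADS-box factor Nitab4.5_0001339g0170, with a K-box, was at 0.12, 0.15 and 0.07 in NC82 and 12.3, 11.85 and 10.9 in M21. The protein phosphatase 2C gene Nitab4.5_0000072g0070 was at 0.26, 0.17 and 0.12 in NC82 and 11.97, 10.6 and 13.1 in M21. Genes were taken as the largest rises or falls only where the groups did not overlap, so their separate groups are not a result. Nitab4.5_0000933g0090, Nitab4.5_0001339g0170 and Nitab4.5_0000072g0070 were under 1 in all NC82 libraries. The filter could pass them only with all M21 libraries at 1 or more, so their p-values are not independent of it. The largest fitted rise, 4.13 ± 1.12 (SE) for Nitab4.5_0009646g0040, had the widest error of the 10: NC82 read 30.7, 0 and 0 and M21 51.2, 38.2 and 81.5. Its call was lost without M21 replicate 1, 2 or 3 and without NC82 replicate 2 or 3 (limma, adjusted p from 0.0633 to 0.0802), and held without NC82 replicate 1 (1.42e-05).

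The largest falls held a nucleoside phosphatase, a gene with an SPX domain and genes of phosphate scavenging. Nitab4.5_0001574g0130, of the GDA1/CD39 family of nucleoside phosphatases (apyrases), was at 15.9, 21.1 and 20.7 in NC82 and 2.23, 2.31 and 2.33 in M21, a change of -2.61 ± 0.11 (SE; limma, adjusted p = 3e-06). Nitab4.5_0000859g0200, with an SPX domain that senses phosphate through inositol pyrophosphates, fell from 18.0, 22.0 and 22.7 to 3.63, 4.10 and 3.50. Nitab4.5_0009182g0010 and Nitab4.5_0000255g0110, of the PHOSPHO-type family of phosphatases, fell by 2.40 and 2.36. Over the 79 tested genes of phosphate sensing, transport and scavenging, 30 were lower and 8 higher, with a median of -0.10 beside 0.04 for all genes. The apyrase is outside this list, and Nitab4.5_0009182g0010 and Nitab4.5_0000255g0110 are among its 30. The direction was not shared by every member: the phosphate permease Nitab4.5_0001005g0050 rose from 13.2, 19.1 and 21.7 to 33.9, 33.3 and 32.7 (0.88 ± 0.15; limma, adjusted p = 0.0026).

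Other large falls had no common domain. The thaumatin Nitab4.5_0007816g0020 was at 16.1, 18.8 and 18.6 in NC82 and 2.50, 2.87 and 2.09 in M21. The GDSL lipase Nitab4.5_0004863g0030 was at 4.69, 6.88 and 5.04 in NC82 and 0.25, 0.45 and 0.40 in M21. The CBS-domain gene Nitab4.5_0002752g0140 fell from 5.60, 6.79 and 6.90 to 0.73, 0.58 and 0.29. Nitab4.5_0000154g0260, a MADS-box factor, stood at 3.92, 3.30 and 5.11 in NC82 and was listed at 0 in M21 replicates 1 and 2 and at 0.08 in replicate 3. This gene, Nitab4.5_0004863g0030 and Nitab4.5_0002752g0140 were under 1 throughout M21. The filter could pass them only with all NC82 libraries at 1 or more.

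**Figure D2:**
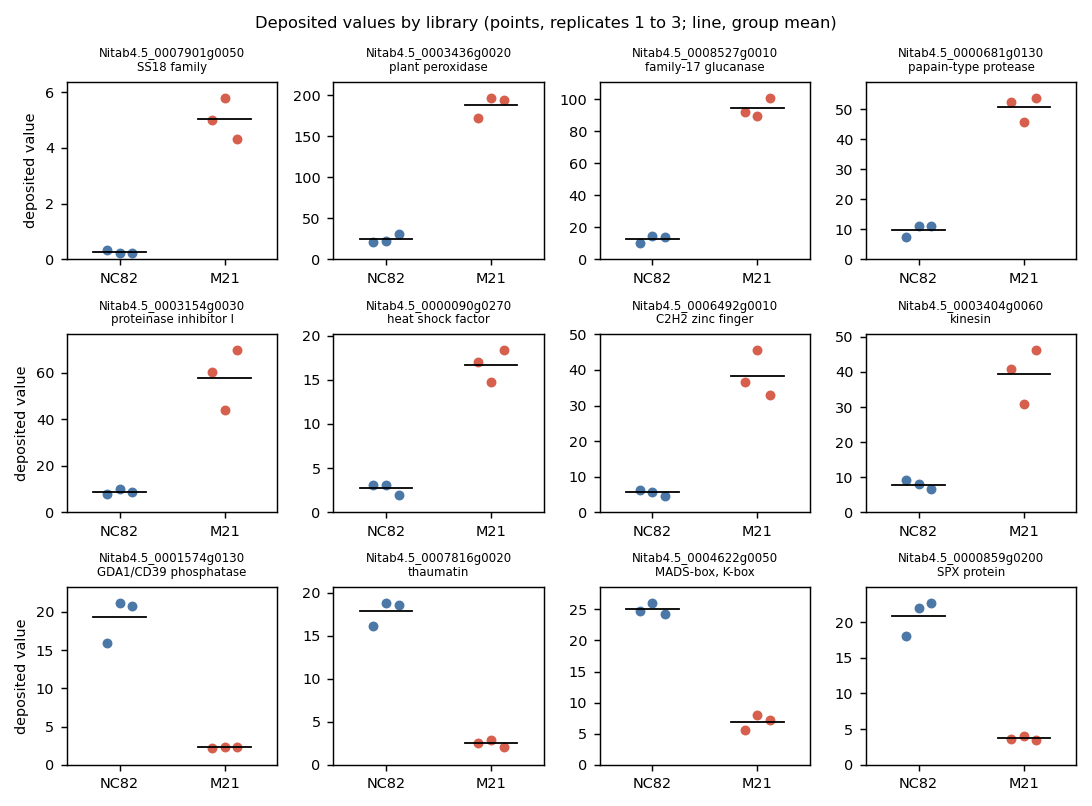
Deposited values of 12 genes in each library, on linear axes that start at 0; points are replicates 1 to 3 and the line is the group mean. The upper 8 genes lie higher in all 3 M21 libraries, such as Nitab4.5_0003436g0020 at 172 to 197 against 21.7 to 30.7, and the lower 4 lie lower, such as Nitab4.5_0001574g0130 at 2.23 to 2.33 against 15.9 to 21.1. Apart from the SS18 gene, these genes were named for large changes in these same values, so their separate groups are not a result.

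Some genes were at 0 in 1 group. Such a gene could pass the filter only with all libraries of the other group at 1 or more. Its presence in all of those libraries is therefore not a result. Of 14 tested genes listed at 0 in all 3 NC82 libraries, 8 had an M21 mean of 2 or more. Among the highest were the FAR1-type gene Nitab4.5_0007303g0080 at 4.01, 8.21 and 20.7 in M21 and the GRF-type zinc finger gene Nitab4.5_0003815g0120 at 3.92, 4.16 and 4.75. A GRF-type zinc finger is not a growth-regulating factor. Nitab4.5_0002218g0020, without a described domain, was at 5.09, 3.65 and 8.17 in M21, and the glucanase Nitab4.5_0002218g0010 of the same number rose from 2.75, 3.03 and 5.68 to 31.9, 35.3 and 32.4. In the other direction, 2 genes with an NC82 mean of 2 or more were listed at 0 in all M21 libraries. One was Nitab4.5_0026287g0010, a subunit VIa of mitochondrial cytochrome c oxidase, at 2.80, 1.92 and 2.38 in NC82.

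Most wall-associated, cysteine-rich and lectin receptor kinases were called higher in M21. Receptor kinases of the cell surface carry an outer domain that binds wall fragments, sugars or microbial molecules and an inner kinase that starts signalling. Of 40 tested wall-associated and cysteine-rich receptor kinases, 30 were higher, 3 lower and 7 not called, with a median change of 0.56. Of 70 lectin and S-locus type kinases, 40 were higher and 2 lower, with a median of 0.41. The much larger group with leucine-rich repeats was mixed, with 63 of 241 higher, 33 lower and a median of 0.02. Its share lower, 13.7%, was near the 11.4% of all genes tested. The 33 became 18 without M21 replicate 1, 16 without NC82 replicate 2 and 20 without NC82 replicate 3.

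Single receptors showed the size of the difference. The cysteine-rich type kinase Nitab4.5_0000900g0120 was at 25.6, 23.0 and 23.5 in NC82 and 76.7, 60.2 and 88.1 in M21, a rise of 1.59 ± 0.12 (SE; limma, adjusted p = 4.2e-05). The wall-associated kinase Nitab4.5_0000453g0150 was at 1.43, 2.60 and 1.82 in NC82 and 9.34, 8.31 and 10.1 in M21. The S-locus type kinase Nitab4.5_0001380g0040 was at 0.26, 0.18 and 0.14 in NC82 and 6.22, 4.87 and 6.84 in M21. These 3 genes were named for the largest called rises in their lists, so their separate groups are not a result. For Nitab4.5_0001380g0040, under 1 throughout NC82, the filter also required separate groups. The leucine-rich repeat kinase Nitab4.5_0005928g0010 rose from 5.70, 6.71 and 7.02 to 25.8, 18.7 and 29.2, whereas Nitab4.5_0002046g0100 went from 8.90, 9.45 and 10.7 to 8.30, 5.1 and 3.88 (-0.71 ± 0.20; limma, adjusted p = 0.03), a call lost without M21 replicate 2, M21 replicate 3, NC82 replicate 2 or NC82 replicate 3.

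Calcium handling, which carries signals from such receptors into the cell, held more genes called higher than lower. Among 72 ion pumps and channels of the ATPase, glutamate receptor and cyclic-nucleotide-gated types, 26 were higher and 3 lower. The glutamate receptor Nitab4.5_0009646g0010 was at 11.0, 12 and 10.8 in NC82 and 25.6, 21.8 and 25.01 in M21. Among 55 calcium-dependent protein kinases 16 were higher and 2 lower, and the 16 became 10 without NC82 replicate 1 and M21 replicate 3. Of 17 CBP60 calmodulin-binding proteins, some of which switch on salicylic acid synthesis in Arabidopsis, 6 were higher and none was lower by limma (9 and 0 at an unadjusted p under 0.05). Nitab4.5_0006432g0020 rose from 4.37, 3.93 and 3.85 to 8.39, 7.05 and 9.42.

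Several regulator families shifted towards higher values. VQ proteins, short partners of WRKY factors, had 14 of 26 tested members higher, 12 not called and a median of 0.42. Nitab4.5_0004588g0030 stood at 16.5, 18.9 and 17.9 in NC82 and 43.9, 47.5 and 40.2 in M21 (1.26 ± 0.08; limma, adjusted p = 1.9e-05). NAC factors, which include regulators of ageing and stress responses, had 21 of 59 higher and 5 lower. Nitab4.5_0000188g0310 rose from 5.66, 6.96 and 7.99 to 25.8, 22.0 and 28.9. Heat shock factors had 11 of 31 higher and 1 lower, led by Nitab4.5_0000090g0270 at 3.04, 3.13 and 1.92 in NC82 and 16.99, 14.8 and 18.4 in M21. The C2H2 zinc fingers as a family had 13 of 153 higher and 8 lower, both below the background shares, yet Nitab4.5_0006492g0010 rose from 6.34, 5.58 and 4.65 to 36.6, 45.5 and 32.9. The 13 became 8 without M21 replicate 1 or M21 replicate 3, and the 8 became 3 to 5 without M21 replicate 1, M21 replicate 2, NC82 replicate 2 or NC82 replicate 3.

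Families of defence proteins differed in how evenly they were divided. Chitinases had 16 of 28 members higher and 1 lower, and CAP-domain proteins, secreted proteins of pathogenesis-related family 1, had 7 of 12 higher and 1 lower. Bet v 1 and major latex proteins, a fold that includes the intracellular pathogenesis-related class, had 15 of 25 members higher and 4 lower. Nitab4.5_0002430g0070 rose from 4.35, 5.59 and 4.48 to 18.5, 18.2 and 20.4, while Nitab4.5_0000595g0110 fell from 6.58, 7.92 and 5.74 to 1.37, 0.85 and 0.91. Thaumatins, antifungal proteins of pathogenesis-related family 5, had 10 of 23 higher and 10 lower. Nitab4.5_0004097g0050 rose from 84.5, 122 and 152 to 408, 444 and 442, against the large fall of Nitab4.5_0007816g0020 given above. The family-17 glucanases cut the callose or fungal type of glucan, and 15 of 55 were higher and 17 lower. Of these, 11 rose by 1 or more on the log2 scale and 1 fell by that much. The 17 became 11 without M21 replicate 1 and 11 without NC82 replicate 3. Nitab4.5_0008527g0010 went from 10.5, 14.5 and 14.2 to 92.3, 89.7 and 101.

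Proteases and their inhibitors were both among the genes called higher. Of 35 papain-type cysteine proteases, enzymes of vacuole and apoplast, 17 were higher and 4 lower. Nitab4.5_0000681g0130 stood at 7.39, 11.1 and 11.3 in NC82 and 52.4, 45.7 and 53.8 in M21, and Nitab4.5_0000681g0080 of the same number rose by 1.59. Of 29 proteinase inhibitors 7 were higher and 3 lower. The potato inhibitor I type gene Nitab4.5_0003154g0030 was at 7.85, 9.93 and 8.69 in NC82 and 60.2, 43.9 and 69.7 in M21, a rise of 2.56 ± 0.15 (SE; limma, adjusted p = 1.1e-05).

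Membrane traffic and autophagy showed small and one-sided differences. Of 42 autophagy genes, 14 were higher and none lower by limma (22 and 0 at an unadjusted p under 0.05), with a median change of 0.23. No member changed by 1 or more. The 14 became 9 without M21 replicate 3 and 9 without NC82 replicate 3. Nitab4.5_0002287g0100, an Atg8 protein that coats the growing autophagosome, was at 22.2, 16.4 and 16.7 in NC82 and 27.1, 27.6 and 34.0 in M21. Of 89 SNARE and exocyst genes, which drive fusion of vesicles with membranes, 20 were higher and 2 lower. The 20 became 13 without M21 replicate 1 and 11 without NC82 replicate 2.

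Enzyme families of specialised metabolism went in different directions. Phenylpropanoid and flavonoid enzymes had 19 of 36 lower and 3 higher, with a median of -0.32, and alkaloid enzymes had 4 of 20 lower and 2 higher. Terpene synthases had 12 of 29 tested members higher and 2 lower, and 10 of the 12 rose by 1 or more. In tobacco this family makes the precursor of the phytoalexin capsidiol. Nitab4.5_0002717g0050 was at 1.37, 5.38 and 2.28 in NC82 and 17.1, 14.97 and 18.0 in M21. Nitab4.5_0000235g0130, a hydroxymethylglutaryl-CoA reductase of the mevalonate route that feeds these enzymes, rose from 2.21, 5.04 and 5.40 to 19.3, 19.7 and 18.7 (2.02 ± 0.22; limma, adjusted p = 0.00026). Glutathione S-transferases, which detoxify reactive compounds, had 31 of 85 higher and 12 lower. Cytochrome P450 enzymes had 56 of 188 higher, 20 of them by 1 or more, and 26 lower, 1 of them by that much. Sugar transporters had 22 of 82 higher and 9 lower (3 to 5 without M21 replicate 1, M21 replicate 2, NC82 replicate 2 or NC82 replicate 3), and Nitab4.5_0000066g0190 rose from 2.52, 2.61 and 2.73 to 8.45, 7.30 and 8.73.

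**Figure D3:**
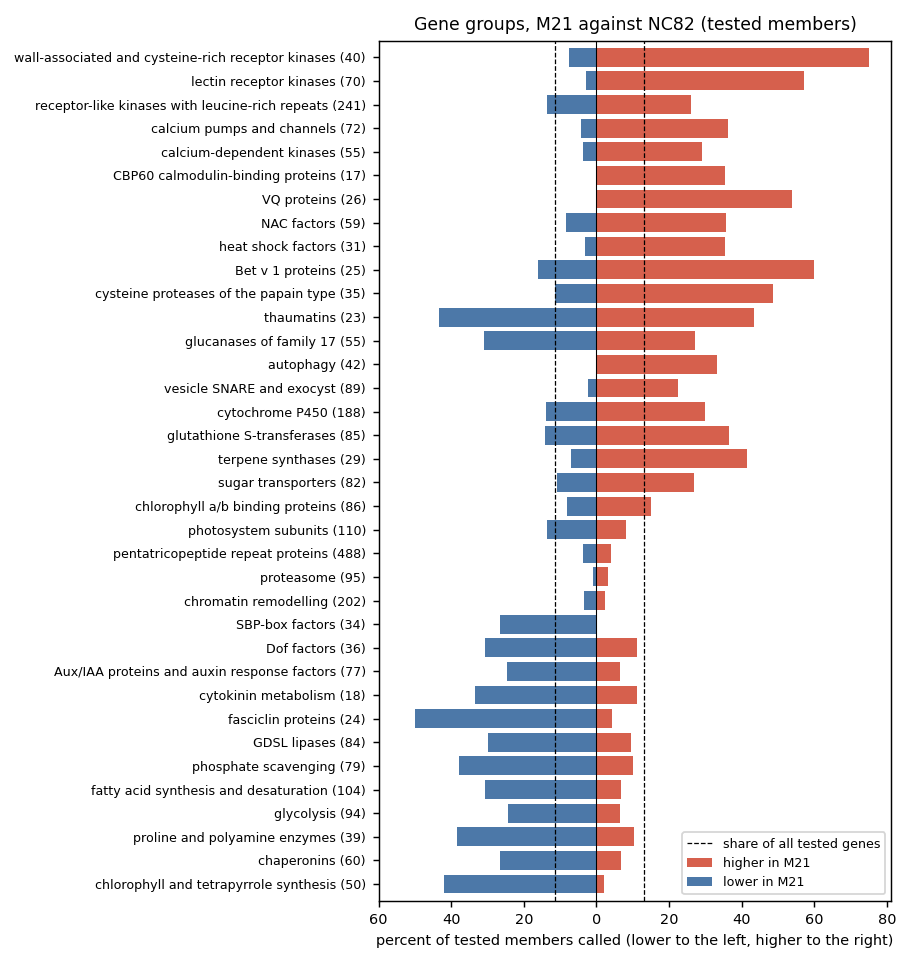
Bars give the percent of tested members called higher (right) or lower (left) in M21 for 36 of the 129 gene groups, picked with their values known, with the number tested in brackets; dashed lines mark 13.2% and 11.4%, the shares over all genes. Among those drawn, wall-associated and lectin receptor kinases, Bet v 1 and VQ proteins extend furthest to the right. Fasciclin proteins, thaumatins and chlorophyll synthesis extend furthest to the left. Of groups not drawn, WRKY factors (57 of 88 higher, none lower), CAP-domain proteins and chitinases had larger shares higher than VQ proteins. Laccases, expansins, phenylpropanoid enzymes and eukaryotic-type ribosomal proteins, not drawn, had larger shares lower than any group drawn.

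Chlorophyll synthesis was lower while the proteins that bind chlorophyll were mixed. Of 50 tetrapyrrole and chlorophyll synthesis genes, 21 were lower and 1 higher, with a median of -0.17. Nitab4.5_0002713g0040, a uroporphyrinogen decarboxylase, fell from 48.3, 53.0 and 59.1 to 31.5, 31.2 and 30.5. Nitab4.5_0001320g0160, a light-dependent protochlorophyllide reductase, fell from 207, 219 and 228 to 146, 148 and 134 (-0.61 ± 0.07; limma, adjusted p = 0.00032). The 1 member called higher, Nitab4.5_0009708g0010, is a glutamyl-tRNA reductase, the enzyme of the first committed step, and stood at 109, 102 and 96.3 in NC82 and 164, 144 and 182 in M21. The 21 became 12 without M21 replicate 1, 12 without M21 replicate 3, 9 without NC82 replicate 2 and 10 without NC82 replicate 3. Of 86 chlorophyll a/b binding proteins 13 were higher and 7 lower, and of 110 photosystem subunits 9 were higher and 15 lower. The binding proteins thus had 15.1% higher and 8.14% lower, and the subunits 8.18% and 13.6%. Over all genes tested these shares were 13.2% and 11.4%. The counts of higher genes depended on single libraries: without NC82 replicate 1 and M21 replicate 3 together the higher counts were 25 and 30. The 13 became 6 without M21 replicate 1, 6 without M21 replicate 2 and 8 without NC82 replicate 2. The 9 became 16 without NC82 replicate 1 and 3 to 5 without M21 replicate 1, M21 replicate 2, NC82 replicate 2 or NC82 replicate 3, and the 15 lower became 8 without M21 replicate 1 or NC82 replicate 2. With median-ratio scaling the binding proteins gave 6 higher and 7 lower, which turned the order of the counts, and the photosystem subunits 4 higher and 15 lower.

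Glycolysis, fatty acid synthesis, GDSL lipases and proline and polyamine enzymes held more falls than rises. Carbon fixation genes had 5 of 50 higher and 5 lower, both below the shares over all genes, and class 3 lipases had 14 of 47 higher and 4 lower. Those 14 became 9 without M21 replicate 1 and 8 without NC82 replicate 2. Of 94 genes in the list of glycolytic enzymes, 23 were lower and 6 higher. The 23 became 43 without NC82 replicate 1, 15 without NC82 replicate 2, and 41 without NC82 replicate 1 and M21 replicate 3. The enolase Nitab4.5_0005504g0040 fell from 5.55, 6.09 and 7.49 to 1.87, 2.36 and 2.29, and the hexokinase Nitab4.5_0000566g0050 rose from 4.10, 3.48 and 3.12 to 9.41, 8.08 and 10.3. Of 104 genes of fatty acid synthesis and desaturation, 32 were lower and 7 higher. The desaturase Nitab4.5_0009018g0030 went from 14.8, 16.3 and 18.1 to 7.87, 7.29 and 7.22. GDSL lipases, esterases of which some build the cuticle, had 25 of 84 lower and 8 higher. Of 39 proline and polyamine enzymes, 15 were lower and 4 higher. Among these, the ornithine decarboxylase Nitab4.5_0005973g0010, which makes the putrescine used for polyamines and nicotine, fell from 5.1, 4.97 and 6.11 to 1.89, 2.04 and 1.38.

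Some families of growth and leaf development regulators held more falls than rises, and others did not. Homeobox factors had 19 of 112 higher and 16 lower. TCP factors had 3 of 38 higher and 3 lower, and GRAS factors 4 of 49 higher and 3 lower. B-box and CCT proteins had 19 of 60 higher and 6 lower. The 16 became 8 to 10 without M21 replicate 1, M21 replicate 2 or NC82 replicate 2. The B-box and CCT count of 19 became 7 to 9 without M21 replicate 1 or 3 or NC82 replicate 2 or 3. SBP-box factors, which time leaf ageing and flowering in Arabidopsis, had 9 of 34 lower and none higher by limma (11 and 0 at an unadjusted p under 0.05). The 9 became 5 without M21 replicate 1 and 5 without NC82 replicate 3. Nitab4.5_0001538g0080 fell from 21.1, 18.2 and 18.5 to 11.5, 9.76 and 11.0. Dof factors had 11 of 36 lower and 4 higher, and the 11 became 7 without M21 replicate 1 and 7 without NC82 replicate 3. Aux/IAA proteins and auxin response factors, the repressors and DNA-binding partners of the auxin response, had 19 of 77 lower and 5 higher. The 19 became 12 without NC82 replicate 2 and 12 without NC82 replicate 3. Nitab4.5_0000999g0120, an auxin response factor, fell from 12.8, 11.3 and 12.7 to 7.93, 6.38 and 7.13 (-0.71 ± 0.10; limma, adjusted p = 0.00079).

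The cytokinin genes called lower included genes of both the making and the breaking side. Of 18 tested, 6 were lower, 2 higher and 10 not called, with a median of -0.12. The LOG enzyme Nitab4.5_0001297g0040, which activates cytokinin, fell from 6.49, 8.62 and 9.25 to 3.31, 3.19 and 3.29. The cytokinin dehydrogenase Nitab4.5_0005779g0060, which degrades it, fell from 6.65, 6.56 and 6.44 to 3.45, 3.46 and 3.01. A second LOG gene, Nitab4.5_0000106g0240, rose from 7.48, 7.05 and 7.53 to 10.5, 9.73 and 9.24.

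MADS-box factors, many of which specify floral organs, had 11 of 36 tested members higher and 5 lower. The 11 became 7 without M21 replicate 1 and 7 without NC82 replicate 2. Nitab4.5_0004622g0050, with a K-box, fell from 24.8, 26.03 and 24.2 to 5.59, 8.05 and 7.23. Fasciclin proteins, arabinogalactan proteins of the cell surface, had 12 of 24 lower and 1 higher, with a median of -0.28. Other groups of the cell wall had larger shares lower: 10 of 12 laccases, with none higher by limma (0 higher and 10 lower at an unadjusted p under 0.05), and 17 of 32 expansins, with 2 higher. The 10 laccases became 6 without M21 replicate 3, 4 without NC82 replicate 2 and 5 without NC82 replicate 3. The fasciclin gene Nitab4.5_0004358g0060 went from 19.3, 20.3 and 18.8 to 11.1, 10 and 10.7. In the cytoskeleton, 58 kinesins gave 1 higher and 7 lower, and the 12.1% lower was near the 11.4% of all genes tested. The 1 that rose, Nitab4.5_0003404g0060, was at 9.12, 7.92 and 6.59 in NC82 and 40.9, 30.8 and 46.2 in M21 (2.17 ± 0.15; limma, adjusted p = 2.3e-05). The actin-related protein Nitab4.5_0006882g0050 rose from 2.86, 3.66 and 3.55 to 26.9, 29.4 and 33.3.

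Chaperonins, which fold proteins in the chloroplast and the cytosol, held more falls than rises. Of 60 chaperonin subunits 16 were lower and 4 higher. The 16 became 27 without NC82 replicate 1, 10 without NC82 replicate 2, and 25 without NC82 replicate 1 and M21 replicate 3. Nitab4.5_0005961g0020, the zeta subunit of the cytosolic TCP-1 complex, fell from 21.6, 19.4 and 20.4 to 8.55, 7.58 and 9.62. Small heat shock proteins were divided, with 12 of 48 higher and 11 lower, and the 11 became 7 without M21 replicate 2.

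Pentatricopeptide repeat proteins, the proteasome and chromatin remodelling genes held few calls, unlike the ribosomal proteins and translation factors counted further on. Pentatricopeptide repeat proteins, which process organelle RNA, had 20 of 488 higher and 18 lower. The proteasome had 3 of 95 higher and 1 lower, and chromatin remodelling genes had 5 of 202 higher and 7 lower. Their medians were 0.01, 0.02 and 0.06. The 20 pentatricopeptide genes became 10 to 12 without M21 replicate 1, M21 replicate 3, NC82 replicate 2 or NC82 replicate 3, and the 18 became 28 without NC82 replicate 1 and 10 without NC82 replicate 2. With median-ratio scaling that family gave 17 higher and 24 lower and the proteasome 0 higher and 1 lower, the opposite order.

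Some identifier numbers held mostly genes that fell. In the naming of these gene models the digits before the g number an assembled stretch of the genome, and the digits after it give the order of genes along that stretch. Grouping the tested genes by that number gave 9500 groups, of which 2030 held 5 or more tested genes. In 33 of the 2030, the median change was -0.5 or lower. The bound was chosen after the values were seen, and what follows is a description without a test. These 33 numbers held 285 tested genes of 588 in the table. Of the 285, 241 were called lower, or 84.6%, beside 11.4% of all genes tested. None was called higher by limma (2 at an unadjusted p under 0.05), and 279 had a negative change. The numbers were picked for low medians in these same values, so these counts are built in and are not a result. Just inside the bound was a median of -0.52, and just outside it were -0.50 and -0.43. The middle 95% of the other numbers had medians from -0.20 to 0.29.

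Of 954 numbers with 8 or more tested genes, 14 were at or under the bound. They held 179 tested genes, of which 159 were lower, a share raised by the same choice. In Nitab4.5_0002026 all 15 tested genes were lower, with changes from -1.17 to -0.60. In Nitab4.5_0003782 all 12 were lower. In Nitab4.5_0000009, 19 of 20 were lower, with a median of -0.66 and a range from -1.53 to -0.27. In the opposite direction, 8 of the 2030 numbers had a median of 0.5 or more, with 32 of their 50 tested genes higher, and 1 of these 8 had 8 or more tested genes. That share of higher calls is raised by its bound as well.

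**Figure D4:**
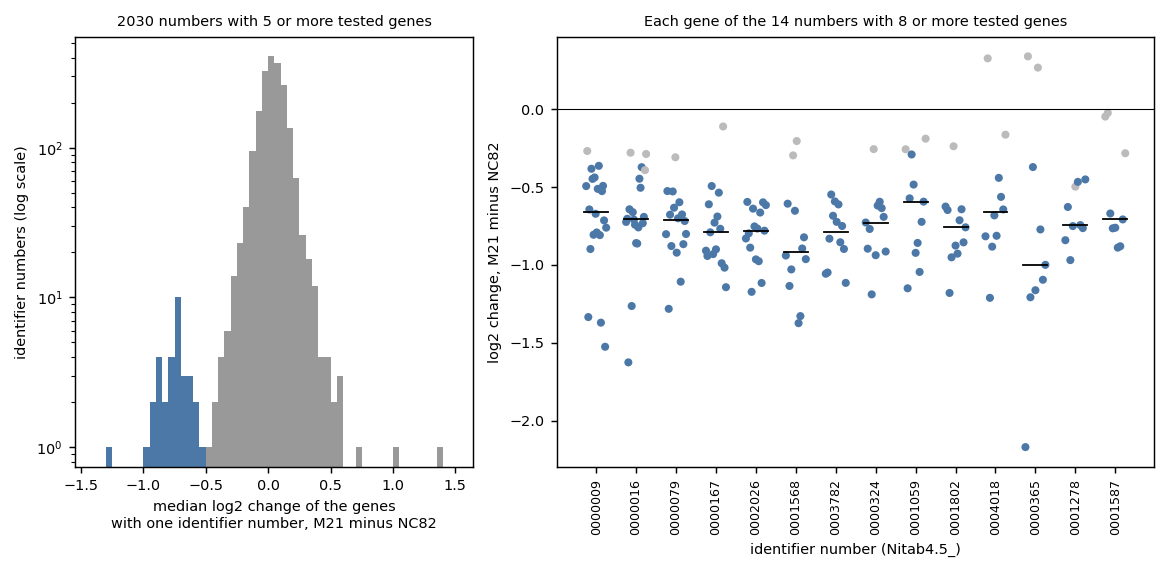
Left, the number of identifier numbers (log scale) by the median log2 change of their genes, for the 2030 with 5 or more tested genes, with the 33 at -0.5 or lower in blue. Right, the log2 change of each tested gene in the 14 largest of these 33 (blue, called lower; grey, not called; line, median), where nearly all points lie below 0. The 33 were picked for low medians in these same values, so this position is built in.

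The genes in these numbers fell by similar ratios and had many different domain descriptions. For the 157 of them with an NC82 mean of 5 or more, the median ratio of the M21 mean to the NC82 mean was 0.517, and the interquartile range ran from 0.441 to 0.567. A ratio from 0.4 to 0.6 was found in 114 of the 157, or 72.6%, against 2.35% of the 17642 other genes at that level, whose median ratio was 1.01. The numbers were picked for low changes in these same values, so this contrast is built in and is not a result. By library, the median ratio to the NC82 mean was 0.513, 0.491 and 0.533 in M21 replicates 1 to 3 and 0.997, 0.997 and 1.01 in the NC82 replicates. The NC82 ratios lie near 1 because they are divided by their own mean. The fall was not particular to M21. In G27, the other line of the series, these median ratios were 0.530, 0.543 and 0.512 in replicates 1 to 3. Of the 33 numbers, 31 also had a median change of -0.5 or lower in G27 against NC82. The G27 values did not enter the choice of the numbers, but the NC82 values did. Without NC82 replicate 1 and M21 replicate 3, 240 of the 285 genes were called lower.

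**Figure D5:**
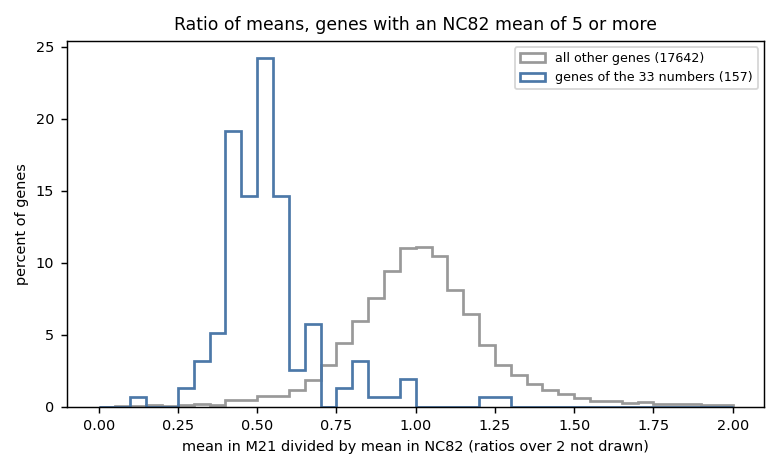
Percent of genes by the ratio of the M21 mean to the NC82 mean, in steps of 0.05, for 157 genes of the 33 identifier numbers (blue) and 17642 other genes (grey) with an NC82 mean of 5 or more. The blue distribution centres near 0.517 and the grey near 1.01. The 33 numbers were picked for low changes in these same values, so the distance between blue and grey is built in.

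Several genes that led their families in the falls belong to these numbers. Nitab4.5_0000009g0420, a ribosomal protein of the L7Ae type, fell from 73.7, 76.2 and 81.7 to 29.3, 31.9 and 26.7. Nitab4.5_0000016g0300, an SBP-box factor, fell from 9.51, 10.01 and 10.3 to 4.97, 4.66 and 5.48. Nitab4.5_0000365g0240, a TCP factor, fell from 4.83, 5.28 and 5.93 to 2.00, 1.71 and 2.20. Members of the same numbers with other functions were the HSP70 gene Nitab4.5_0004078g0050 at -1.46, the elongation factor subunit Nitab4.5_0001799g0120 at -1.35, the organelle termination factor Nitab4.5_0000079g0110 at -1.28 and the vacuolar ATPase subunit Nitab4.5_0000079g0230 at -1.11. None of the 10 largest falls was among them.

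Leaving these genes out could only lower the counts of lower genes, because 241 of the 285 were called lower and none higher. The drops below were therefore fixed by the choice. They show only how many calls of each family lay in these numbers, and no fit was repeated. The genes of these numbers were 0.877% of the genes tested and 6.48% of those called lower, and 43 of the 287 falls of 1 or more, or 14.98%. Without them 3476 genes were lower and 4288 higher. RNA recognition motif proteins went from 43 lower of 450 to 33 of 440, and RING proteins from 26 of 502 to 20 of 496. Pentatricopeptide repeat proteins went from 18 of 488 to 14 of 484. Of 6 histone genes called lower, 4 belonged to these numbers, leaving 2 lower beside 16 higher. That histone count of 16 became 9 without M21 replicate 1, 8 without M21 replicate 3, 8 without NC82 replicate 2 and 9 without NC82 replicate 3. Eukaryotic-type ribosomal proteins had 164 of 318 lower with them and 161 of 315 without them, and translation factors 53 of 252 and 47 of 246. The 43 became 27 without NC82 replicate 2. The 53 became 35 without M21 replicate 3, 31 without NC82 replicate 2 and 30 without NC82 replicate 3. Why the genes of these numbers fell together was not tested.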

How the data were processed

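RNA-seq libraries of young tobacco leaves were compared, 3 of M21 and 3 of NC82. Each value in the deposited table is a normalized signal that the authors computed for 1 gene in 1 library. Per the submitters' processing notes, the tools used included StringTie, RSEM and HISAT2. For their versions, roles and the genome build, nothing is given in the sources used here. The values are not counts, and whether they are TPM or FPKM is not stated, so the depth of each library is unknown and no counting interval was computed. A difference is on the log2(value + 1) scale, which understates the change of low genes. Mean columns of the table were not used.

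Genes with a value of 1 or more in at least 3 of 6 libraries were tested with limma 3.58.1 in R 4.3.3 (linear model, empirical Bayes with a mean trend, two-sided, no covariates, Benjamini-Hochberg adjustment over 32504 genes), with calls at an adjusted p under 0.05. The fit was first tested on simulated data. An exact permutation test of 3 against 3 libraries cannot go below 0.10. Figures and counts used Python 3.11.15 with pandas 2.3.3.

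Gene groups are word patterns on the deposited domain descriptions, 129 in all, corrected after descriptions, not values, were read. Members, groups and the naming rule were chosen with earlier results of these data known. The rule names all tested SS18 genes; the 10 largest rises and falls with separate groups; in groups with 8 or more tested members called 1.5 times as often as all genes, the 2 largest changes with a mean of 5 or more and 1 in the other direction; otherwise the largest called change; and the 5 highest genes at 0 in 1 group with a mean of 2 or more in the other. It gives 282 genes, of which those of the groups described are printed. The genes of the identifier number shared with Nitab4.5_0007901g0050 were chosen after their values were seen. No identifier matched the reference gene table at hand, so no sequences or positions are given. That identifier numbers stand for assembled stretches is known from the naming scheme, not from a file. Changes of a group's count without 1 library are given for counts of 8 or more. Replicate numbers did not pair the samples.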

Additional observations from a re-analysis of the deposited data

How the results depend on the processing

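The fit as reported gave 4288 genes higher and 3717 lower. Other settings stayed within 1.5 times of these counts: 4233 and 3649 with a pseudocount of 0.1, 3975 and 3573 with no filter, 2968 and 2624 with a filter of 5, 4155 and 3574 with no mean trend, and 4309 and 3728 with all 9 libraries. Median-ratio scaling gave 3908 and 4284, so which direction held more genes depended on the scaling. Leaving out 1 library gave 2936 to 4642 higher and 2567 to 3979 lower, and leaving out NC82 replicate 1 and M21 replicate 3 gave 3764 and 3945. Leaving out the genes of the 33 identifier numbers, chosen after seeing the data, gave 4288 and 3476. That was a subtraction without a new fit of genes picked for low changes, so it is no check of these counts. Same-numbered libraries did not deviate together (correlations of -0.07, 0.07 and -0.24), so the numbers do not pair them. A fit with the replicate number as a block gave 3642 and 3237, and Nitab4.5_0001993g0030 was not called in it (limma, adjusted p = 0.078). Of 280 named genes called, 20 lost the call under at least 1 setting. The SS18 gene Nitab4.5_0000319g0250, called under none of these settings, went from -0.06 to 0.0056 without M21 replicate 2, with a range of -0.17 to 0.0056 over the fits without 1 library. With 3 libraries a group, outliers could not be tested, and the unknown depth leaves counting error unknown.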
